A study of Mus musculus with 16 samples.

Results

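The comparison was between primary cortical neurons of C57BL/6 mice that had spent 6 h together with microglia and the same kind of neurons kept alone, neither having received α-synuclein fibrils. It uses 8 of the 16 libraries: 4 of untreated neurons with microglia and 4 of untreated neurons alone, picked by the treatment named in their titles. The other 8 libraries are of neurons that took up Atto488-labelled α-synuclein fibrils (0.1 µM, 16 h, then washed) with and without microglia. They enter the filter on low counts, the scaling between libraries, the shared estimate of spread and the side-by-side values near the end. All neurons came from embryos of day 15 to 16 and were grown for 14 days in Neurobasal medium with B-27. No transgene or gene deletion is given for any group. The labels call every library primary neurons and do not say how microglia were taken off before RNA was isolated. Nor do they state that libraries of a group were made from different cultures or animals. The p-values then measure the spread between these libraries alone, and it may be technical.

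Microglia are the resident macrophages of the brain, and they touch, prune and support neurons. Cultures prepared from embryonic cortex also hold some glial cells and their precursors, among them oligodendrocyte precursor cells, which divide, carry the platelet-derived growth factor receptor Pdgfra and later make myelin. A measurement of RNA from a whole culture therefore reads several cell types together. In such bulk libraries a change in the number of cells of a type and a change in RNA per cell cannot be told apart. RNA from cells of the neuronal culture and RNA from any cells added along with the microglia cannot be told apart either.

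With microglia, 16 of 13139 tested genes changed, 9 higher and 7 lower. The genes that rose included 5 of oligodendrocyte precursors (Pdgfra, Olig1, Sox8, Cacng4 and Lhfpl3), the mitotic spindle gene Aspm and the nuclear lamina gene Lmnb1. The genes that fell were of neurons and their organelles, among them Thy1, Camk2n1, Ywhag, Mapk8ip1 and the proton pump subunit Atp6v0c. Of the tested genes 0.122% were called, 0.0685% higher and 0.0533% lower, by edgeR's quasi-likelihood test at a Benjamini-Hochberg adjusted p under 0.05. At an unadjusted p under 0.05 there were 1196 genes (9.1% of those tested), 604 higher (4.6%) and 592 lower (4.51%). Of all tested genes 49.1% had a log2 change above 0 and 50.8% below 0.

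**Figure D1:**
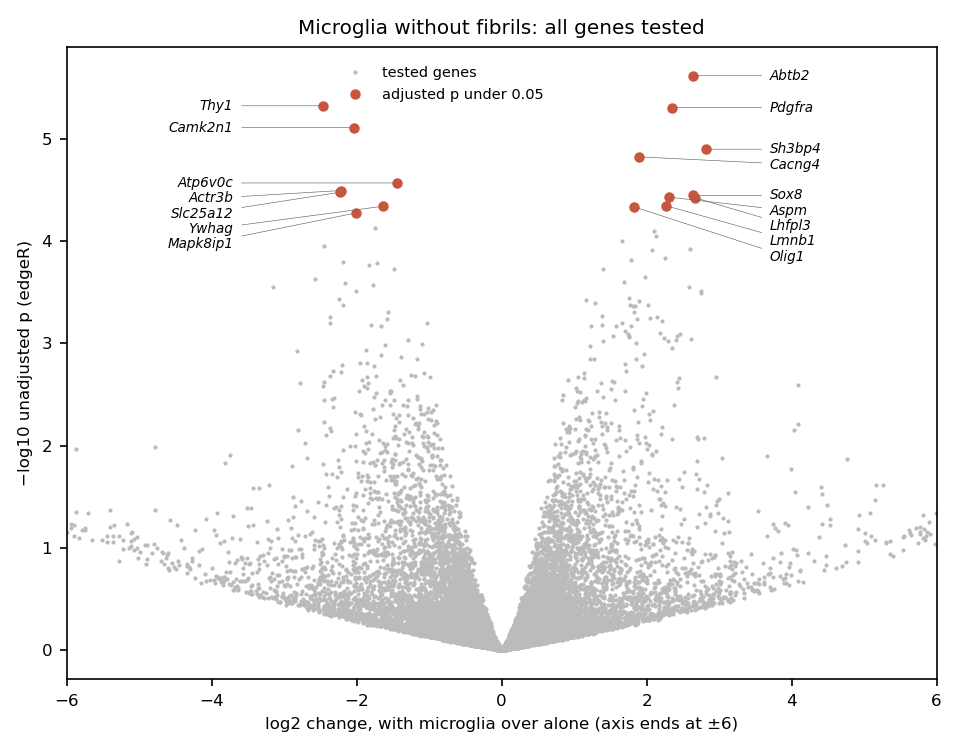
Each point is a tested gene, placed by its log2 change (with microglia over alone) on the x axis and by −log10 of its unadjusted edgeR p on the y axis, and the named red points are the called genes. The 16 called genes, 9 to the right and 7 to the left, lie at the top edge of a cloud with about as many points on either side.

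The count of 16 depended on single libraries. Without replicate 1 of the co-culture group none was called (917 genes at an unadjusted p under 0.05), without replicate 2 there were 7, without replicate 3 18 and without replicate 4 2. Without replicate 1 of the neurons kept alone there were 39, without replicate 2 none (992 at an unadjusted p under 0.05), without replicate 3 none (1089) and without replicate 4 1. Each of the 16 genes was called in 0 to 5 of these 8 fits. All kept their direction, which was nearly fixed beforehand, since their groups did not overlap. With library totals as the only scaling the median of all genes moved to 0.18 on the log2 scale, against −0.02 with TMM scaling, and 30 genes were called higher and 5 lower, against 9 and 7. With the 2 groups fitted alone, without the fibril-loaded libraries, 1 of 11792 tested genes was called.

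Total counts were 6740089 to 11947749 per library with microglia and 7881788 to 13986374 per library alone. Pearson correlations of log2 CPM (CPM, counts scaled to a common library total, prior count 2) were 0.659 to 0.756 among the co-culture libraries, 0.665 to 0.753 among those of neurons alone and 0.564 to 0.746 between the groups. The ribosomal RNA gene Rn45s took 10.9% to 13.2% of counts with microglia and 11.6% to 26.8% alone, the highest being replicate 1. All 16 called genes were among the 4380 with the highest mean level, which began at 41.6 CPM. Groups did not overlap for 495 genes that were higher with microglia (3.77% of those tested) and for 501 that were lower (3.81%). Among the 4380 genes with the lowest level these shares were 1.74% and 1.48%, and among the 4380 with the highest 5.82% and 6.83%.

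Pdgfra, the receptor that defines oligodendrocyte precursors (chromosome 5, 75152292 to 75198215, plus strand, GRCm38), had 503, 418, 341 and 497 CPM in the 4 libraries with microglia, against 120, 65.1, 73.5 and 87.4 CPM in neurons alone. It rose by 2.34 ± 0.40 on the log2 scale (estimate ± SE, n = 4 per group; edgeR adjusted p = 0.0218). Olig1, a basic helix-loop-helix factor of the oligodendrocyte lineage (chromosome 16, 91269772 to 91271933, plus strand), had 1906, 1210, 1051 and 1499 CPM with microglia, against 802, 309, 264 and 221 CPM alone. The lowest co-culture library lay above the highest library of neurons alone for both genes, and replicate 1 of the neurons alone was the highest of its group for both. Olig1 rose by 1.83 ± 0.37 (adjusted p = 0.0407). The predicted antisense gene Gm15966 overlaps the last kilobase of Olig1, and the strand setting of the authors' counting is not given in the sources used here, so reads of the pair cannot be told apart.

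Sox8, a SoxE transcription factor that acts beside Sox10 in the lineage (chromosome 17, 25565892 to 25570686, minus strand), had 281, 82.0, 79.2 and 113 CPM with microglia, against 24.5, 21.2, 32.3 and 11.2 CPM alone. Lhfpl3, a tetraspan membrane protein gene read strongly in oligodendrocyte precursors (chromosome 5, 22746059 to 23275597, plus strand), had 532, 241, 235 and 205 CPM with microglia, against 91.6, 26.6, 29.2 and 44.3 CPM alone. For both genes co-culture replicate 1 was far above the other 3 co-culture libraries. Sox8 rose by 2.64 ± 0.52 and Lhfpl3 by 2.66 ± 0.51 (adjusted p = 0.0407 for each). Without that library the log2 changes were 2.04 and 2.24, and neither was called (adjusted p = 0.214 and 0.19).

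Cacng4 (chromosome 11, 107732357 to 107794557, minus strand) encodes an auxiliary subunit that guides AMPA-type glutamate receptors to the membrane, and oligodendrocyte precursors carry it as well as neurons. It had 750, 764, 440 and 453 CPM with microglia, against 230, 135, 151 and 132 CPM alone. It rose by 1.89 ± 0.35 (adjusted p = 0.033). The co-culture libraries formed pairs, replicates 1 and 2 above replicates 3 and 4, and all 4 were above the neurons alone.

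**Figure D2:**
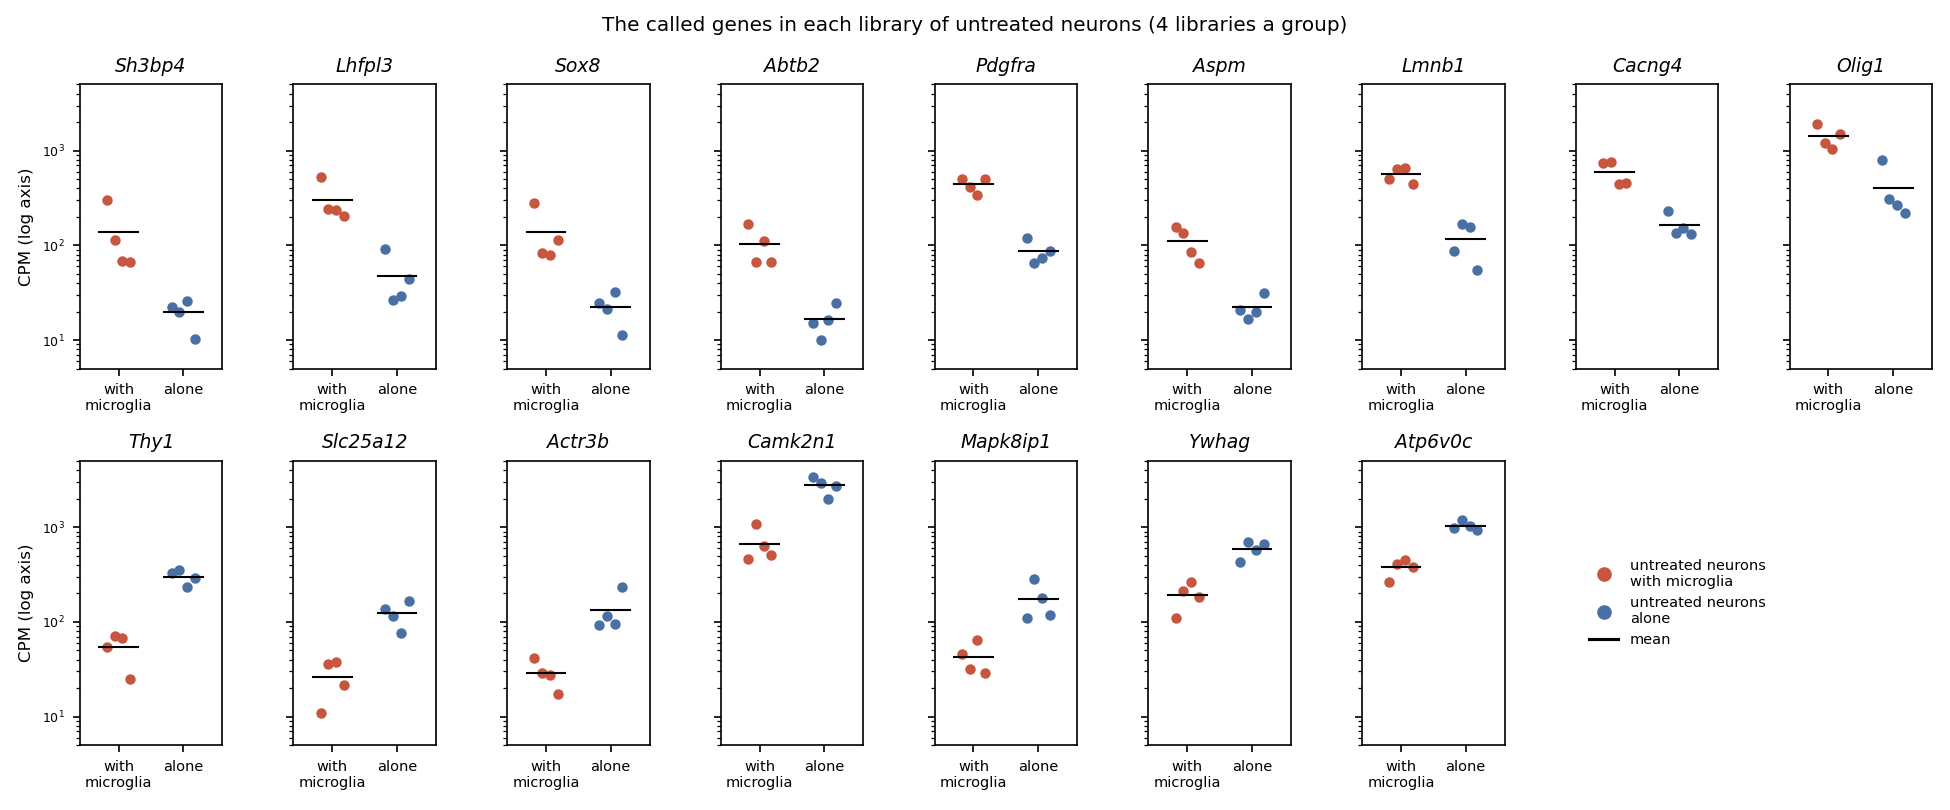
CPM (log axis) of the called genes in each library, with microglia on the left and alone on the right of each panel; points are libraries and bars are means of 4. The upper row holds the 9 genes that rose and the lower row the 7 that fell, and in every panel the groups are apart.

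Stretches around the start sites of 3 of these precursor genes, and of 2 genes that fell, are shown. Control by these stretches was not tested. Each run holds 250 bases before to 50 bases after the start in GRCm38.p6, 5′ to 3′ on the gene's strand, from RefSeq. Capitals mark CANNTG, the E-box motif that basic helix-loop-helix factors such as Olig1 can bind, searched on both strands (it reads alike on each). The order is Pdgfra (chr5:75152001-75152300, plus), Sox8 (chr17:25570637-25570936, minus), Lhfpl3 (chr5:22745804-22746103, plus), Slc25a12 (chr2:71367706-71368005, minus) and Atp6v0c (chr17:24169629-24169928, minus).
Pdgfra: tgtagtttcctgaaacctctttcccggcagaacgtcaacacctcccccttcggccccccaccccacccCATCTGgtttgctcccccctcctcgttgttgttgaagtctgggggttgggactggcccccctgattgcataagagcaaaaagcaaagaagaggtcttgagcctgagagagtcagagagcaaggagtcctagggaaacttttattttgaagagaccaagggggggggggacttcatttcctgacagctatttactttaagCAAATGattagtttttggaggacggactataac
Sox8: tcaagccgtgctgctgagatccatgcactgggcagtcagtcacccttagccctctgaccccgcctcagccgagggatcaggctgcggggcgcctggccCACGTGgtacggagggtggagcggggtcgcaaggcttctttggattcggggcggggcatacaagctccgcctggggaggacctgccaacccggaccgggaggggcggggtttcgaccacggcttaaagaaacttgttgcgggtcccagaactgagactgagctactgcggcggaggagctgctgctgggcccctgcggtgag
Lhfpl3: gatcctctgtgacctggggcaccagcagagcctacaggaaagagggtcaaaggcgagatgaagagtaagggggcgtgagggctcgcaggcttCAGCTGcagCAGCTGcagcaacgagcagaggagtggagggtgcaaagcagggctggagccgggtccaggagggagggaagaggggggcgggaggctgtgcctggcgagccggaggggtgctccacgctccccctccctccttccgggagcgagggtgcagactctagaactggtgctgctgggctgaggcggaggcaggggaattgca
Slc25a12: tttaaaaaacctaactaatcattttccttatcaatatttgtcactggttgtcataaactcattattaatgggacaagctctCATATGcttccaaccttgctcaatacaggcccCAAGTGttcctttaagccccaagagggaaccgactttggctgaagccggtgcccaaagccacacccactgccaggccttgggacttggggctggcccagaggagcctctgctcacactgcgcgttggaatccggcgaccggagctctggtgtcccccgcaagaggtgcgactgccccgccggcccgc
Atp6v0c: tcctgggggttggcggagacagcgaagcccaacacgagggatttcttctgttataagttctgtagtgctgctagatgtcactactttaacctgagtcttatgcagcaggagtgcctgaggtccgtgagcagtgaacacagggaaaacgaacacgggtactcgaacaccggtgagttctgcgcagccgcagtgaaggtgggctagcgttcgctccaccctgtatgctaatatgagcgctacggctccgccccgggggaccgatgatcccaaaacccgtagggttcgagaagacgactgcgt
Entries were found for 9 of the 16 called genes. An E-box was present in 4 of the 6 higher genes and in 1 of the 3 lower genes with an entry, against 62.2% of the 10193 promoters of tested genes. The GC box GGGCGG was present in 5 of 6 and 2 of 3, against 66% of those promoters, and the Sox motif ACAAAG in 1 of 6 and 0 of 3, against 12.9%. These are matches of letters only.

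All 18 oligodendrocyte precursor genes tested were higher with microglia, against 49.1% of all genes. Of the 18, 5 were called, against 0.0685% of all tested genes called higher. Higher with no overlap were 12 of them, against 3.77% of all tested genes and 5.82% of the most abundant ones. This list and the others were written with earlier results of these data known, so such counts are not independent support. The median log2 change of the 18 was 1.99, and that of all tested genes −0.02. Cspg4, which encodes the NG2 proteoglycan of these cells, had 171, 138, 89.5 and 251 CPM with microglia, against 59.8, 27.0, 28.7 and 33.2 CPM alone, and did not pass (log2 change 2.13 ± 0.45, adjusted p = 0.0618). Olig2, the partner of Olig1 that specifies the lineage, had 725, 726, 753 and 616 CPM with microglia, against 206, 122, 271 and 238 CPM alone (1.75 ± 0.45, adjusted p = 0.148). Sox10, the SoxE factor that drives myelin genes, had 788, 445, 303 and 263 CPM with microglia, against 133, 59.6, 94.3 and 13.3 CPM alone (2.58 ± 0.58, adjusted p = 0.0982). Neither pair of groups overlapped, and neither gene passed. Ptprz1, a receptor phosphatase that radial glia and astrocytes also carry and one of the 3 most abundant members, did overlap. It had 1510, 1130, 732 and 1930 CPM with microglia, against 1670, 291, 340 and 265 CPM alone (1.05 ± 0.55, adjusted p = 0.637).

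Genes of the next stage, differentiating oligodendrocytes and myelin, were higher in 16 of 17 tested, with a median of 1.46. None was called, and 8 were higher with no overlap, against 3.77% of all tested genes. Enpp6, a choline phosphodiesterase of newly formed oligodendrocytes, came closest. It had 73.0, 60.4, 37.7 and 128 CPM with microglia, against 24.4, 15.3, 10.8 and 19.0 CPM alone (2.10 ± 0.44, adjusted p = 0.0585). Cnp, an enzyme of uncompacted myelin, had 561, 200, 206 and 469 CPM with microglia, against 104, 77.9, 68.2 and 52.6 CPM alone (2.25 ± 0.48, adjusted p = 0.0796), and Dnajc7 lies on the opposite strand at its 3′ end. Gpr17, a receptor of committed precursors, had 1690, 302, 397 and 515 CPM with microglia, against 91.2, 109, 197 and 134 CPM alone (2.45 ± 0.67, adjusted p = 0.233). Co-culture replicate 1 was several times above its group for Gpr17, and the other 3 co-culture libraries were still above every library of neurons alone. Of the late myelin genes, Mbp had 204, 194, 210 and 337 CPM with microglia, against 91.0, 121, 194 and 147 CPM alone (0.77 ± 0.35, adjusted p = 0.506).

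**Figure D3:**
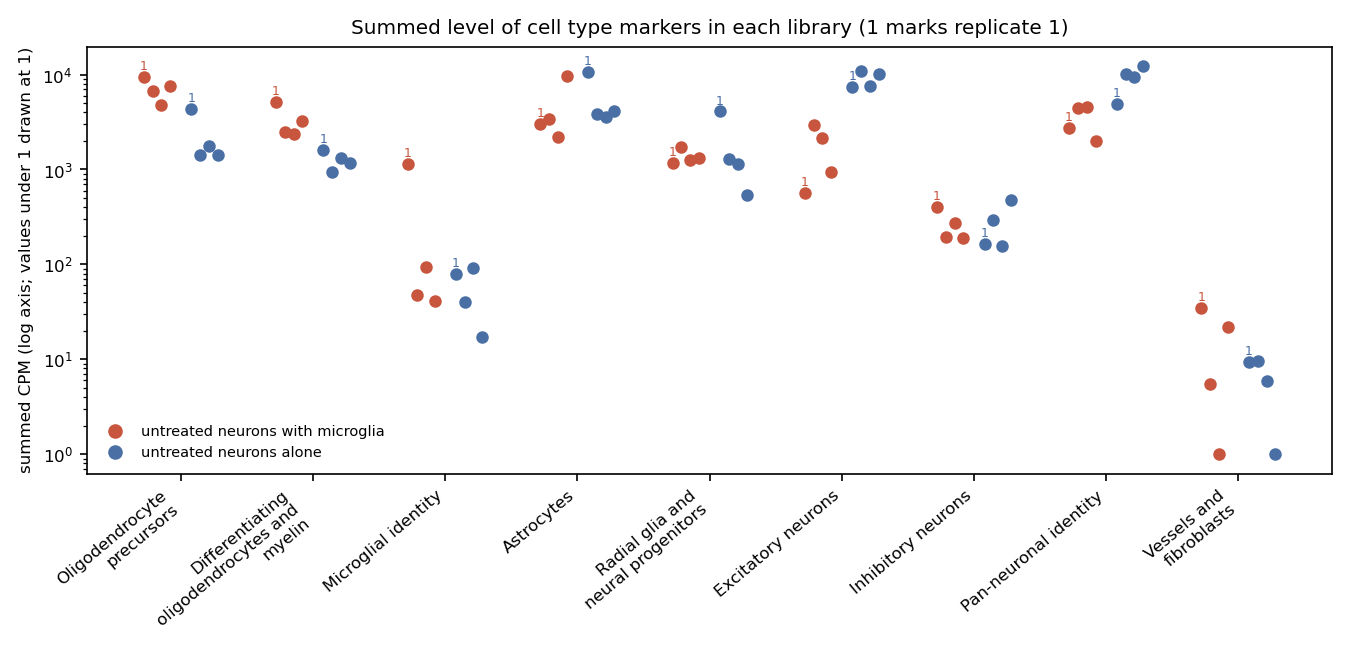
Summed CPM (log axis, values under 1 drawn at 1) of each cell type's markers in each library, with microglia on the left and alone on the right of each pair; the digit 1 marks replicate 1. Sums of oligodendrocyte precursor markers (4824 to 9482 CPM with microglia, 1412 to 4328 CPM alone) and of excitatory neuron markers (562 to 2931 CPM with microglia, 7454 to 10932 CPM alone) do not overlap, and the microglial sum stands high in replicate 1 of the co-culture.

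Cell division genes formed another group that lay higher. Aspm (chromosome 1, 139454772 to 139494091, plus strand), which holds the poles of the mitotic spindle, had 158, 134, 85.1 and 64.3 CPM with microglia, against 20.7, 16.8, 19.6 and 31.6 CPM alone. It rose by 2.31 ± 0.45 (adjusted p = 0.0407). All 29 mitosis and chromosome condensation genes tested were higher, with a median of 1.99. Higher with no overlap were 16 of them, against 3.77% of all tested genes. Mki67, the usual marker of cycling cells, had 215, 195, 199 and 163 CPM with microglia, against 66.8, 14.4, 26.4 and 20.2 CPM alone, and did not pass (2.59 ± 0.56, adjusted p = 0.0704). Top2a, the topoisomerase that untangles replicated chromosomes, had 479, 622, 681 and 507 CPM with microglia, against 190, 91.7, 103 and 48.6 CPM alone (2.40 ± 0.60, adjusted p = 0.148). Hmgb2, a chromatin protein of dividing cells, had 306, 376, 403 and 294 CPM with microglia, against 123, 120, 129 and 37.1 CPM alone (1.76 ± 0.42, adjusted p = 0.111). In all 3 the lowest co-culture library lay above the highest library of neurons alone.

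DNA replication genes were higher in 27 of 28 tested, with a median of 1.50 and none called. Higher with no overlap were 10 of them, against 3.77% of all tested genes. All 6 Mcm helicase genes were higher, 5 with no overlap. Mcm7 had 136, 206, 253 and 221 CPM with microglia, against 74.1, 18.6, 77.6 and 55.9 CPM alone (1.85 ± 0.51, adjusted p = 0.187). Lig1, the ligase that seals Okazaki fragments, had 133, 217, 140 and 178 CPM with microglia, against 42.4, 42.1, 65.4 and 26.5 CPM alone (1.92 ± 0.71, adjusted p = 0.425). The summed level of radial glia and neural progenitor markers, cells that also divide, overlapped, with 1183 to 1707 CPM with microglia and 534 to 4094 CPM alone. Of the 16 progenitor genes tested 7 were higher and 9 lower, with a median of −0.35 that turned to 0.51 without replicate 1 of the neurons alone and to 0.07 without co-culture replicate 1. Vim, the intermediate filament of glia, had 299, 286, 236 and 119 CPM with microglia, against 1690, 246, 279 and 37.3 CPM alone.

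Lmnb1, the B-type lamin of the nuclear lamina, had 497, 646, 662 and 445 CPM with microglia, against 87.5, 166, 157 and 54.6 CPM alone. It rose by 2.27 ± 0.45 (adjusted p = 0.0407). Of 20 lamina and envelope genes tested 14 were higher and 6 lower, with a median of 0.50. Higher with no overlap were 3 of them, against 3.77% of all tested genes. Tmpo, a lamina-associated polypeptide that binds B-type lamins, had 168, 228, 215 and 147 CPM with microglia, against 94.0, 26.7, 45.9 and 17.1 CPM alone (2.04 ± 0.51, adjusted p = 0.129). H1f4, a linker histone, and Marcks, a membrane-bound substrate of protein kinase C, did not pass either. H1f4 had 130, 174, 130 and 178 CPM with microglia, against 40.2, 46.1, 62.5 and 29.7 CPM alone (1.78 ± 0.39, adjusted p = 0.0803). Marcks had 2056, 1626, 1320 and 997 CPM with microglia, against 656, 698, 359 and 559 CPM alone (1.40 ± 0.32, adjusted p = 0.0828).

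Abtb2 and Sh3bp4 were the remaining called genes that rose, and they belong to none of the lists. Abtb2, which encodes an ankyrin repeat and BTB domain protein (chromosome 2, 103566310 to 103718423, plus strand), had 166, 66.6, 112 and 66.2 CPM with microglia, against 14.96, 9.91, 16.4 and 24.8 CPM alone. It rose by 2.63 ± 0.42 (adjusted p = 0.0218). Sh3bp4, an SH3 protein of clathrin-mediated endocytosis (chromosome 1, 89070415 to 89155068, plus strand), had 301, 115, 68.5 and 67.2 CPM with microglia, against 22.4, 19.8, 25.5 and 10.3 CPM alone. It rose by 2.82 ± 0.51 (adjusted p = 0.033), and by 2.10 with no call without co-culture replicate 1 (adjusted p = 0.19). The other abundant genes with no overlap and the smallest p among those higher and not called were Vezf1, Col11a1, Sh3d19 and Fxyd6, with log2 changes of 1.66, 2.07, 1.97 and 1.69 (adjusted p = 0.0664, 0.0704, 0.0947 and 0.0963).

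Among the genes that fell, Thy1 encodes the glycoprotein that coats mature neurons (chromosome 9, 44043384 to 44048579, plus strand). It had 53.8, 71.6, 67.9 and 24.8 CPM with microglia, against 325, 352, 232 and 293 CPM alone. It fell by 2.46 ± 0.41 on the log2 scale (adjusted p = 0.0218). Camk2n1, an inhibitor of the calcium and calmodulin dependent kinase CaMKII (chromosome 4, 138454314 to 138460123, plus strand), had 464, 1072, 636 and 514 CPM with microglia, against 3425, 2913, 1976 and 2727 CPM alone. It fell by 2.04 ± 0.36 (adjusted p = 0.0256). Every library with microglia lay far below every library of neurons alone for both genes.

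Ywhag, the γ isoform of the 14-3-3 adaptor proteins (chromosome 5, 135908409 to 135934616, minus strand), had 109, 209, 265 and 183 CPM with microglia, against 432, 698, 580 and 665 CPM alone, and fell by 1.63 ± 0.33 (adjusted p = 0.0407). Mapk8ip1, the JIP1 scaffold that joins the JNK kinase cascade to kinesin cargo (chromosome 2, 92383676 to 92401263, minus strand), had 46.0, 31.7, 64.1 and 28.9 CPM with microglia, against 109, 285, 177 and 119 CPM alone. It fell by 2.01 ± 0.41 (adjusted p = 0.0438), and 1700029I15Rik lies on the opposite strand over its 3′ end. Actr3b, the neuronal form of a subunit of the actin-nucleating Arp2/3 complex (chromosome 5, 25759997 to 25850688, plus strand), had 41.6, 28.6, 27.4 and 17.4 CPM with microglia, against 92.9, 114, 93.8 and 235 CPM alone. It fell by 2.22 ± 0.43 (adjusted p = 0.0407), with replicate 4 of the neurons alone far above its group.

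The remaining called genes that fell act in organelles. Atp6v0c encodes the proteolipid that lines the proton channel of the vacuolar ATPase, the pump that acidifies lysosomes and synaptic vesicles (chromosome 17, 24163866 to 24169702, minus strand). It had 266, 412, 454 and 377 CPM with microglia, against 980, 1180, 1030 and 929 CPM alone, and fell by 1.45 ± 0.28 (adjusted p = 0.0407). A processed pseudogene of it, Atp6v0c-ps2, has a row of its own in the count table, and reads shared between the pair would make both counts uncertain. Slc25a12, the mitochondrial aspartate and glutamate carrier of neurons (chromosome 2, 71271063 to 71367749, minus strand), had 10.8, 35.7, 37.2 and 21.7 CPM with microglia, against 136, 115, 76.4 and 168 CPM alone. It fell by 2.23 ± 0.43 (adjusted p = 0.0407). Again every library with microglia lay below every library of neurons alone, by the widest margin in co-culture replicate 1.

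The neuronal lists lay lower with microglia, with 1 called gene in the list of pan-neuronal markers (Thy1) and 1 in the list of CaMKII and calmodulin (Camk2n1). The share called lower over all tested genes was 0.0533%. Of 22 pan-neuronal genes tested 21 were lower, with a median of −1.85, and in 6 the groups did not overlap, against 3.81% of all tested genes that were lower with no overlap. Tubb3, the neuronal β-tubulin, had 76.6, 113, 39.2 and 45.9 CPM with microglia, against 234, 301, 186 and 511 CPM alone, and did not pass (−2.16 ± 0.50, adjusted p = 0.0963). Uchl1, an abundant neuronal deubiquitinase, had 92.4, 106, 111 and 62.4 CPM with microglia, against 197, 350, 374 and 347 CPM alone (−1.77 ± 0.41, adjusted p = 0.0975). The most abundant members behaved unlike one another. Syt1, the calcium sensor of vesicle release, ranged from 9.18 to 702 CPM with microglia and from 553 to 1650 CPM alone. Mapt, which encodes tau, had 537, 589, 556 and 378 CPM with microglia, against 462, 850, 949 and 2100 CPM alone, and Map2 had 719, 755, 535 and 615 CPM with microglia, against 586, 757, 752 and 798 CPM alone. Every library with or without microglia held at least 21 of the 22 pan-neuronal markers.

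Excitatory neuron genes were lower in 18 of 19 tested, with a median of −1.55 and 6 with no overlap, against 3.81% of all tested genes. Nrgn, the calmodulin-binding protein of dendritic spines, had 117, 1200, 910 and 235 CPM with microglia, against 4760, 6320, 4450 and 6420 CPM alone, and did not pass (−3.16 ± 0.68, adjusted p = 0.0982). Mef2c, an activity-dependent factor of excitatory neurons, had 46.5, 311, 219 and 44.4 CPM with microglia, against 460, 1190, 731 and 791 CPM alone (−2.35 ± 0.76, adjusted p = 0.352). In both, co-culture replicates 1 and 4 lay several times below replicates 2 and 3. Inhibitory neuron genes went both ways, with 9 of 16 tested higher and 7 lower, with a median of 0.16 that turned to −0.13 without replicate 2 of the neurons alone and to −0.04 without co-culture replicate 1. Their summed level was low, at 187 to 399 CPM with microglia and 156 to 477 CPM alone. Gad1, which makes the inhibitory transmitter, had 6.96, 3.1, 57.4 and 4.23 CPM with microglia, against 14.4, 51.5, 7.57 and 127 CPM alone (−1.48 ± 1.19, adjusted p = 0.887). Gad2, the other enzyme of that step, had 19.8, 16.2, 3.46 and 4.68 CPM with microglia, against 7.01, 39.4, 45.8 and 145 CPM alone (−2.43 ± 1.10, unadjusted p = 0.0379, adjusted p = 0.517). The interneuron subclass markers Sst and Pvalb reached at most 2.53 and 3.76 CPM with microglia and at most 37.1 and 51.2 CPM alone, and the groups overlapped for all of these genes. Erbb4, a neuregulin receptor of interneurons, had 140, 31.4, 45.1 and 32.2 CPM with microglia, against 18.1, 6.92, 6.67 and 48.2 CPM alone.

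Presynaptic release genes were lower in 27 of 30 tested, with a median of −1.86. Lower with no overlap were 8 of them, against 3.81% of all tested genes. Vamp2, the vesicle SNARE, had 41.9, 75.6, 84.0 and 45.1 CPM with microglia, against 105, 380, 296 and 353 CPM alone (−2.20 ± 0.60, adjusted p = 0.205). Syn2, a synapsin that tethers vesicles, had 131, 167, 127 and 78.5 CPM with microglia, against 252, 548, 633 and 593 CPM alone (−2.01 ± 0.47, adjusted p = 0.101). Replicate 1 was the lowest of the neurons alone for both and still lay above every co-culture library. Syt11, the most abundant member and one that glia also make, had 1540, 1280, 836 and 1070 CPM with microglia, against 1770, 1570, 1180 and 1180 CPM alone. Postsynaptic density genes were lower in 19 of 25 tested, with a median of −1.26. Lower with no overlap were 3 of them, against 3.81% of all tested genes and 6.83% of the most abundant ones. Neuropeptide and granin genes were lower in 18 of 18, with a median of −1.23 and 3 with no overlap, against the same shares. Among these Cck had 48.5, 346, 419 and 89.1 CPM with microglia, against 696, 2650, 923 and 1120 CPM alone (−2.58 ± 1.37, adjusted p = 0.656).

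All 19 CaMKII, calmodulin and calcineurin genes tested were lower, with a median of −1.47. Lower with no overlap were 10 of them, against 3.81% of all tested genes. Calm3, a calmodulin gene, had 283, 287, 313 and 199 CPM with microglia, against 564, 692, 603 and 460 CPM alone (−1.10 ± 0.29, adjusted p = 0.156). Ppp3ca, the catalytic subunit of calcineurin, had 250, 624, 519 and 406 CPM with microglia, against 906, 1330, 802 and 1360 CPM alone (−1.29 ± 0.34, adjusted p = 0.148). Camk2a, the kinase itself, had 82.8, 630, 230 and 167 CPM with microglia, against 835, 1350, 920 and 1260 CPM alone (−1.98 ± 0.75, adjusted p = 0.47). Camk2n1 was thus the only gene of this list that passed, in a list whose members were all lower.

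Receptor and channel genes were mixed. Voltage-gated channel genes were lower in 24 of 30 tested, with a median of −1.23. Lower with no overlap were 9 of them, against 3.81% of all tested genes. Kcnq3, a subunit of the M-type potassium channel, had 32.6, 84.6, 45.1 and 25.1 CPM with microglia, against 88.6, 239, 204 and 181 CPM alone (−1.93 ± 0.56, adjusted p = 0.24). Scn8a, the sodium channel of the axon initial segment, had 55.2, 141, 83.5 and 29.8 CPM with microglia, against 157, 209, 176 and 183 CPM alone (−1.23 ± 0.51, adjusted p = 0.479). AMPA and NMDA receptor genes and their auxiliary subunits were higher in 8 and lower in 13 of 21. AMPA receptor subunits were higher in 3 of 4 (median 0.34), NMDA receptor subunits lower in 3 of 4 (median −1.59), and of the 6 Cacng subunits 2 were higher, Cacng4 being called. Gria4, an AMPA receptor subunit, had 122, 75.6, 77.3 and 57.5 CPM with microglia, against 15.1, 37.6, 23.3 and 40.4 CPM alone (1.51 ± 0.45, adjusted p = 0.259). Gria2, the subunit that makes the channel tight to calcium, had 723, 1010, 775 and 590 CPM with microglia, against 561, 719, 650 and 641 CPM alone. Grin2b, an NMDA receptor subunit, had 17.3, 480, 230 and 40.9 CPM with microglia, against 331, 834, 520 and 488 CPM alone. GABA genes were lower in 17 of 20, with a median of −1.24. Lower with no overlap were 2 of them, against 3.81% of all tested genes and 6.83% of the most abundant ones.

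All 28 immediate early genes tested were lower, with a median of −1.21. Lower with no overlap were 3.81% of all tested genes, and 1 of these 28. Their levels varied widely between the co-culture libraries: Bdnf, the activity-induced neurotrophin, had 6.89, 218, 335 and 11.7 CPM with microglia, against 127, 637, 371 and 543 CPM alone. Jun had 207, 299, 391 and 185 CPM with microglia, against 205, 401, 627 and 76.9 CPM alone. Of the JNK pathway, 14 of 20 genes tested were lower and 6 higher, with a median of −0.50. With no overlap 2 were lower and 1 higher, against 3.81% and 3.77% of all tested genes. Besides Mapk8ip1, Mapk10, the neuronal JNK, had 13.6, 121, 59.1 and 66.8 CPM with microglia, against 207, 129, 130 and 170 CPM alone (−1.29 ± 0.45, adjusted p = 0.382). Jund had 114, 351, 177 and 154 CPM with microglia, against 297, 210, 257 and 262 CPM alone. Map3k1 went the other way, with 45.5, 53.3, 56.1 and 133 CPM with microglia, against 25.1, 7.26, 5.9 and 17.9 CPM alone (2.36 ± 0.63, adjusted p = 0.163).

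Neurofilament and microtubule genes were lower in 24 of 27 tested, with a median of −0.86 and 6 with no overlap, against 3.81% of all tested genes. The most abundant of them, Tubb2b and Tuba1a, overlapped, and Tubb2a had 246, 705, 672 and 1070 CPM with microglia, against 1100, 1220, 1130 and 1820 CPM alone (−0.97 ± 0.35, adjusted p = 0.387). Tubb2b had 1600, 3170, 2830 and 4430 CPM with microglia, against 3040, 4950, 4160 and 2490 CPM alone, and Tuba1a had 1840, 1020, 1070 and 1070 CPM with microglia, against 1460, 1440, 1130 and 1660 CPM alone. Axonal transport genes were lower in 20 of 25, with a median of −0.49. With no overlap 4 were lower and 1 higher, against 3.81% and 3.77% of all tested genes. Kif5a, the neuronal kinesin heavy chain, had 141, 311, 67.1 and 145 CPM with microglia, against 463, 610, 657 and 465 CPM alone, and did not pass (−1.72 ± 0.38, adjusted p = 0.0805). Hap1, the adaptor that binds huntingtin, went the other way, with 111, 90.1, 97.3 and 112 CPM with microglia, against 11.7, 26.6, 42.3 and 30.1 CPM alone (1.89 ± 0.45, adjusted p = 0.111). The other abundant genes with no overlap and the smallest p among those lower and not called were Eef1a2, Spryd3, Ensa and Bmerb1. Their log2 changes were −2.45, −2.18, −1.83 and −1.49 (adjusted p = 0.07, 0.0803, 0.0807 and 0.0828).

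Of the 7 14-3-3 genes 5 were lower and 2 higher, and 4 were lower with no overlap, against 3.81% of all tested genes. Ywhaz had 186, 327, 431 and 258 CPM with microglia, against 713, 691, 599 and 750 CPM alone (−1.19 ± 0.34, adjusted p = 0.233), and Ywhab had 401, 566, 597 and 551 CPM with microglia, against 681, 660, 681 and 963 CPM alone (−0.50 ± 0.27, adjusted p = 0.656). Ywhae, the most abundant, had 962, 1360, 1100 and 981 CPM with microglia, against 948, 1080, 887 and 624 CPM alone. Of the Arp2/3 and actin nucleation genes 21 of 26 were lower, with a median of −0.38. Lower with no overlap were 2 of them, against 3.81% of all tested genes and 6.83% of the most abundant ones. Apart from Actr3b the differences were small: Arpc2, another subunit of the complex, had 372, 305, 374 and 277 CPM with microglia, against 454, 334, 431 and 487 CPM alone. Cfl1 and Dstn, which sever actin filaments, overlapped, with 509 to 777 CPM and 312 to 549 CPM with microglia, against 417 to 979 CPM and 217 to 1160 CPM alone.

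The vacuolar proton pump was lower as a group while other lysosomal genes were not. Of 17 pump genes 16 were lower, with a median of −1.03. Lower with no overlap were 7 of them, against 3.81% of all tested genes. Of the 14 other lysosomal genes 7 were higher and 7 lower, with a median of −0.03 and 0 with no overlap. Atp6v1a, the catalytic subunit, had 298, 245, 378 and 307 CPM with microglia, against 529, 726, 564 and 695 CPM alone (−1.03 ± 0.26, adjusted p = 0.13). Atp6v1g2, a subunit of neuronal pumps, had 28.9, 80.2, 84.8 and 32.8 CPM with microglia, against 148, 291, 349 and 387 CPM alone (−2.37 ± 0.66, adjusted p = 0.233). Lamp1, a membrane protein of lysosomes in all cells, had 543, 294, 248 and 522 CPM with microglia, against 355, 262, 294 and 254 CPM alone (0.46 ± 0.30, adjusted p = 0.763). The difference between the pump and the other lysosomal genes was not tested.

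Glycolysis genes were lower in 21 of 22 tested, with a median of −0.94. Lower with no overlap were 3 of them, against 3.81% of all tested genes and 6.83% of the most abundant ones. Pgam1 had 350, 272, 396 and 312 CPM with microglia, against 1020, 616, 525 and 475 CPM alone (−0.99 ± 0.29, adjusted p = 0.233). Genes of pyruvate dehydrogenase and the citrate cycle were lower in 24 of 27 (median −0.30, 4 with no overlap) and nuclear genes of the respiratory chain in 60 of 70 (median −0.28, 4 with no overlap, against 6.83% of the most abundant genes that were lower with no overlap). With library totals as scaling, which moves the median of all genes up by about as much, these medians were −0.75 for glycolysis, −0.0994 for the citrate cycle and −0.0793 for the respiratory chain. Mitochondrial carriers were lower in 21 of 30, with a median of −0.20 that came to 0.00 with library totals as scaling. Lower with no overlap were 4 of them, against 3.81% of all tested genes and 6.83% of the most abundant ones. Besides Slc25a12, Slc25a4, the adenine nucleotide carrier, had 727, 731, 469 and 634 CPM with microglia, against 1220, 1050, 927 and 914 CPM alone (−0.68 ± 0.28, adjusted p = 0.479). Slc25a5 and Slc25a3 overlapped, with 161 to 441 CPM and 303 to 870 CPM with microglia, against 151 to 489 CPM and 455 to 853 CPM alone.

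Genes of protein synthesis and RNA processing lay slightly higher with microglia in nearly every member. Ribosomal protein genes were higher in 75 of 81 tested, with a median of 0.40 and none called. Higher with no overlap were 11 of them, against 5.82% of the most abundant genes. Rpl11, a protein of the large subunit, had 497, 556, 672 and 627 CPM with microglia, against 284, 330, 370 and 320 CPM alone (0.85 ± 0.26, adjusted p = 0.273). The most abundant members, Rpl41, Rplp1 and Rps29, overlapped, with 1060 to 1490 CPM, 817 to 1600 CPM and 514 to 1420 CPM with microglia, against 923 to 1360 CPM, 823 to 1300 CPM and 430 to 897 CPM alone. Splicing factor and hnRNP genes were higher in 33 of 34, with a median of 0.51 and 11 with no overlap. All 15 hnRNP genes were higher, 9 with no overlap, and their median was 0.72. Hnrnpa0, the most abundant, had 739, 704, 977 and 964 CPM with microglia, against 297, 602, 683 and 476 CPM alone (0.72 ± 0.28, adjusted p = 0.47). Hnrnpd, which binds AU-rich RNA, had 161, 321, 214 and 187 CPM with microglia, against 104, 79.4, 139 and 114 CPM alone (1.02 ± 0.32, adjusted p = 0.302). Snrnp70, of the U1 particle, overlapped, with 244 to 750 CPM with microglia, against 213 to 642 CPM alone.

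**Figure D4:**
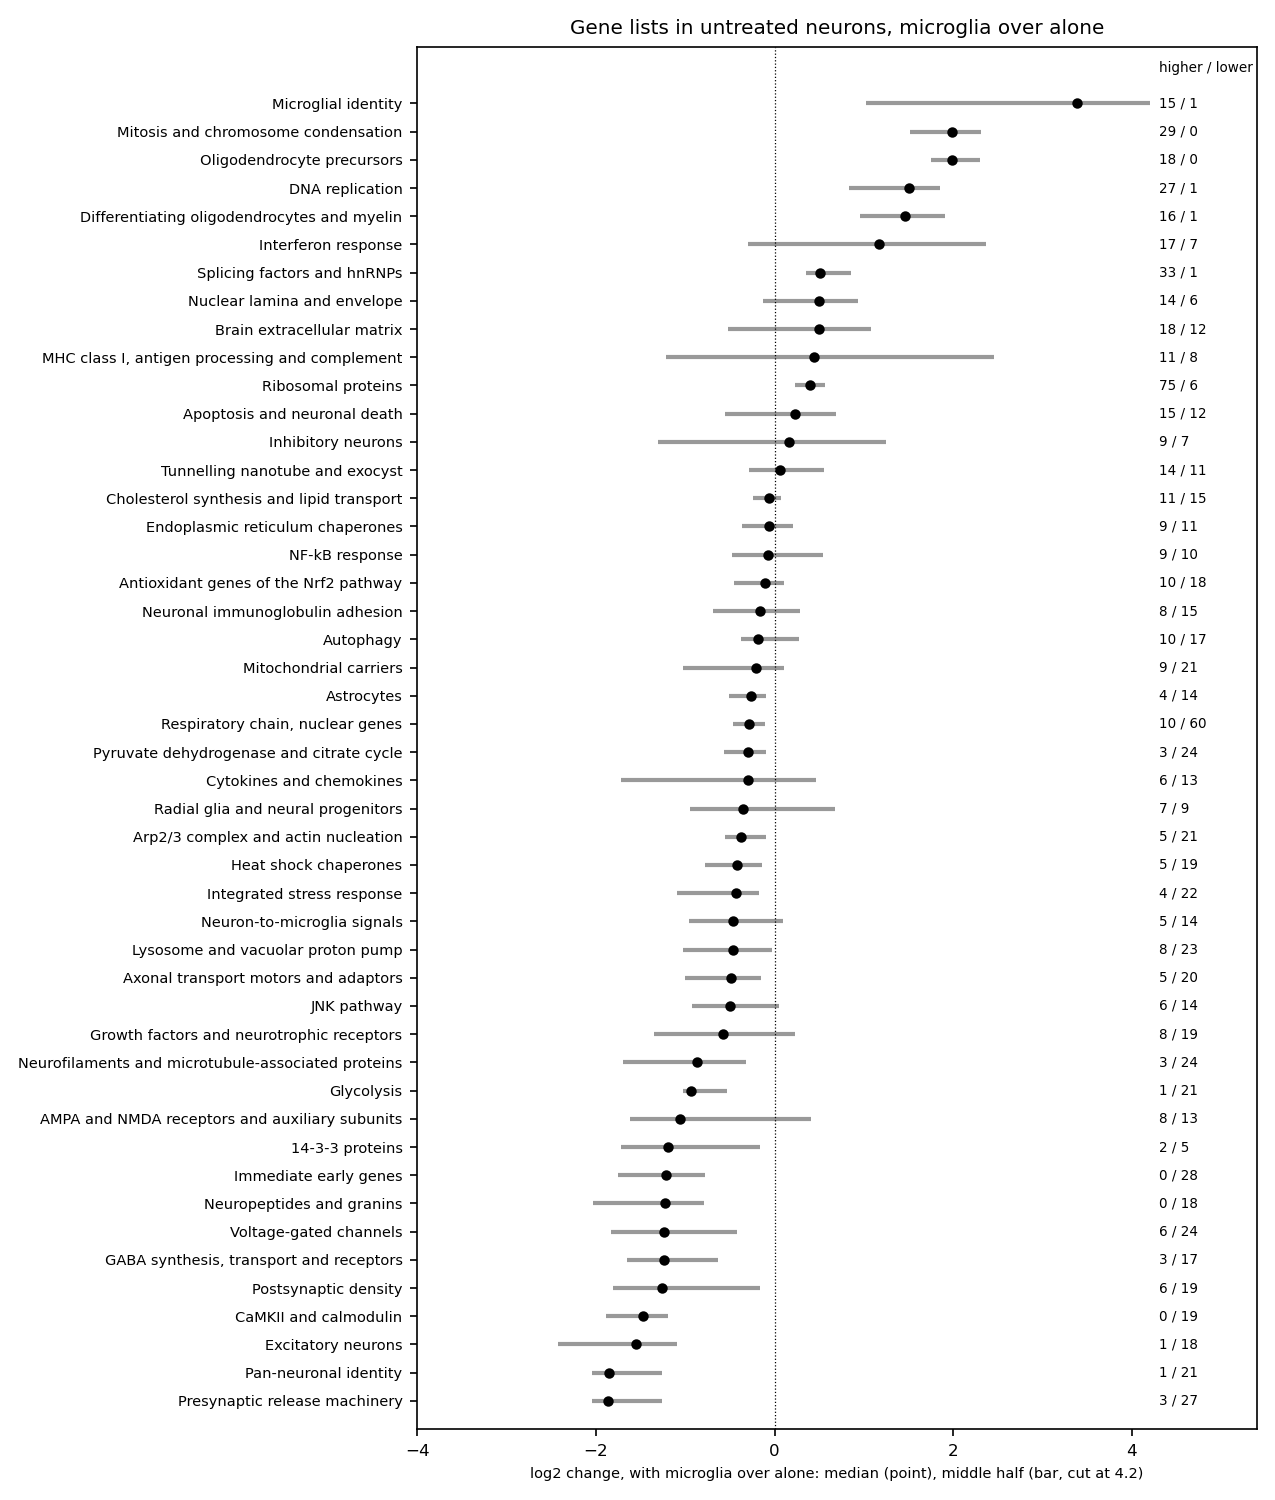
Median (point) and lower to upper quartile (bar, cut at 4.2) of the log2 change, with microglia over alone, of the tested members of each gene list, with the number of members higher and lower at the right. Microglial, mitosis, oligodendrocyte precursor and DNA replication lists lie highest (medians 3.39, 1.99, 1.99 and 1.50), and presynaptic, pan-neuronal and excitatory lists lowest (−1.86, −1.85 and −1.55).

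The summed level of 28 microglial genes was 1136, 48.1, 93.0 and 41.1 CPM with microglia, against 79.9, 40.2, 92.1 and 17.0 CPM alone. Of these genes 22, 12, 7 and 3 were detected with microglia, against 12, 7, 5 and 2 alone. In co-culture replicate 1 Lyz2 stood at 174 CPM, Ctss at 154, C1qc at 94.5, Tyrobp at 69.6 and Csf1r at 64.3 CPM, and Lyz2, Tyrobp and Csf1r were at 0 in the other 3 co-culture libraries. C1qc was at 33.6 CPM in co-culture replicate 3 and at 0 in every library of neurons alone, and Ctss was at 2.67 CPM in co-culture replicate 2. P2ry12, P2ry13, Tmem119 and Selplg, which mark resting microglia, were at 0 in all 8 libraries. Of the 16 microglial genes tested 15 were higher and none was called. In none of them did the groups lie apart, and the fitted median of 3.39 was 0.02 without co-culture replicate 1. That median rests in part on genes at 0 in every library of neurons alone, such as C1qa and C1qc, for which the fitted fold depends on the prior count. Such genes could only be higher, so the count of 15 higher was in part fixed beforehand. Cd68, a lysosomal protein of phagocytes and the most abundant microglial gene in neurons alone, had 15.7, 11.5, 24.2 and 0 CPM with microglia, against 15.5, 20.4, 30.7 and 9.01 CPM alone.

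Without co-culture replicate 1 the median log2 change was 1.81 for oligodendrocyte precursor genes, 1.90 for mitosis genes and 1.49 for DNA replication genes, and it was −1.55 for presynaptic, −1.57 for pan-neuronal and −1.52 for excitatory neuron genes. In that fit the called genes that rose had log2 changes of 1.65 (Olig1) to 2.33 (Lmnb1). Those that fell had −2.46 (Thy1) to −1.31 (Atp6v0c), and none of the 16 passed. Astrocyte markers summed to 3024, 3444, 2190 and 9571 CPM with microglia, against 10599, 3864, 3572 and 4153 CPM alone, so that co-culture replicate 4 and replicate 1 of the neurons alone stood high. Replicate 1 of the neurons alone also had the highest sums of its group for oligodendrocyte precursors (4328 CPM against 1412 to 1772 CPM in the other 3) and progenitors (4094 against 534 to 1274 CPM), and the largest share of Rn45s. Genes of vessels and fibroblasts summed to at most 34.7 CPM with microglia and at most 9.6 CPM alone. What part these cell type sums have in the gene differences was not tested.

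Immune response genes showed little that lay apart. Of 24 interferon response genes tested 17 were higher, and none was called. Their median was 1.17, and 0.62 to 3.41 over the alternatives, the highest without replicate 1 of the neurons alone. Higher with no overlap were 2 of them, against 3.77% of all tested genes. Ifit3, an induced antiviral gene, had 15.7, 12.4, 14.4 and 41.9 CPM with microglia, against 12.3, 4.03, 0 and 0.0732 CPM alone (2.36 ± 1.79, adjusted p = 0.86). Its groups did not overlap, and its level was low. Cytokine genes were higher in 6 and lower in 13 of 19 tested, NF-κB response genes higher in 9 and lower in 10 of 19, and genes of MHC class I and complement higher in 11 and lower in 8 of 19, in each list with no member whose groups lay apart. Genes by which neurons signal to microglia were lower in 14 of 19, with a median of −0.47. Cx3cl1, the membrane-bound chemokine of neurons, had 111, 170, 362 and 94.1 CPM with microglia, against 172, 717, 731 and 1200 CPM alone (−1.93 ± 0.91, adjusted p = 0.563).

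The series title names tunnelling nanotubes, thin membrane bridges between cells. Of 25 genes of nanotube growth and the exocyst 14 were higher and 11 lower, with a median of 0.06 that ranged from −0.02 to 0.26 over the alternatives, and none was called. The small GTPase genes Rac1, Cdc42 and Rhoa had 338 to 646 CPM, 424 to 484 CPM and 197 to 324 CPM with microglia, against 280 to 393 CPM, 444 to 578 CPM and 111 to 458 CPM alone. Of the stress lists, heat shock chaperones were lower in 19 of 24 (median −0.42) and integrated stress response genes in 22 of 26 (−0.43). Antioxidant genes were lower in 18 of 28 (−0.11), endoplasmic reticulum chaperones in 11 of 20 (−0.07), autophagy genes in 17 of 27 (−0.18, and 0.02 with library totals as scaling) and cholesterol genes in 15 of 26 (−0.06). Apoptosis genes were higher in 15 of 27 (0.23). Hsp90aa1, the inducible cytosolic chaperone, was the most abundant of those lying apart, with 639, 1140, 1060 and 652 CPM with microglia, against 1340, 2060, 1930 and 1500 CPM alone (−0.97 ± 0.31, adjusted p = 0.318). Growth factor and neurotrophic receptor genes were lower in 19 of 27 (−0.58), neuronal adhesion genes in 15 of 23 (−0.16), and brain matrix genes were higher in 18 of 30 (0.50). Of the 47 lists with a median, 33 kept its sign under every alternative run. The 14 that did not, 7 of them under another scaling, were those of astrocytes, progenitors, inhibitory neurons, adhesion, nanotubes, mitochondrial carriers, autophagy, antioxidant, endoplasmic reticulum, cholesterol and apoptosis genes, NF-κB, cytokines, and MHC class I with complement.

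The same contrast was available in the 8 libraries of fibril-loaded neurons, which share no library with it. All 16 genes had the same sign there. Pdgfra had 136, 264, 261 and 523 CPM in loaded neurons with microglia, against 52.1, 23.5, 22.8 and 50.2 CPM in loaded neurons alone (log2 change 2.99 ± 0.41, adjusted p = 0.00237). Thy1 had 26.3, 17.1, 48.6 and 35.8 CPM in loaded neurons with microglia, against 119, 160, 110 and 288 CPM in loaded neurons alone (−2.41 ± 0.41, adjusted p = 0.0209). Neither gene overlapped there either. Lhfpl3 (2.94), Camk2n1 (−2.02) and Cacng4 (1.75) also passed in loaded neurons, while Slc25a12 (−0.99, adjusted p = 0.37) and Atp6v0c (−0.74, adjusted p = 0.306) were among the 11 that did not.

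**Figure D5:**
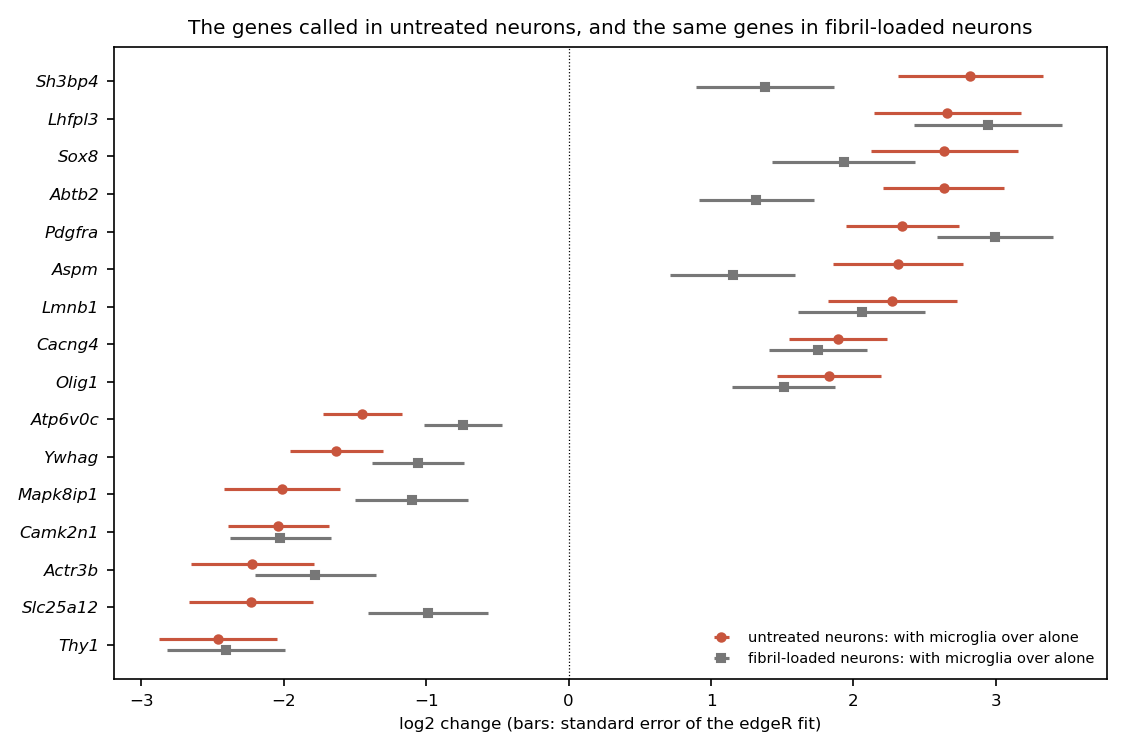
Log2 change (with microglia over alone) of the genes called in untreated neurons, in untreated neurons (circles) and in fibril-loaded neurons (squares); bars are standard errors of the edgeR fit. All 16 genes lie on the same side of 0 in both, and Abtb2, Sh3bp4, Slc25a12 and Aspm have the widest gaps.

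The difference between the microglia effects with and without fibrils was tested directly as an interaction. None of the 13139 genes was called (edgeR; smallest adjusted p = 1.00), and 529 (4.03%) had an unadjusted p under 0.05, while limma-voom also called 0 and DESeq2 187. Among the 16 called genes the smallest unadjusted p values were for interactions of −1.31 ± 0.57 in Abtb2 (unadjusted p = 0.0293), −1.44 ± 0.68 in Sh3bp4 (unadjusted p = 0.0438) and 1.24 ± 0.59 in Slc25a12 (unadjusted p = 0.046). The 5 genes with the smallest p were Atp6v0c-ps2, Ndufb4, Wdr83, Zcchc2 and Plin3 (unadjusted p = 0.000392 to 0.00122), and none passed. Ndufb4, a subunit of respiratory complex I, had 50.1, 61.8, 91.0 and 116 CPM in untreated neurons with microglia, against 30.3, 55.1, 36.9 and 26.9 CPM in untreated neurons alone. In loaded neurons it had 73.3, 42.8, 39.6 and 50.4 CPM with microglia, against 119, 141, 73.3 and 136 CPM alone.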

How the data were processed

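RNA of 16 libraries was made into QuantSeq 3′ mRNA-Seq FWD libraries, per the labels' protocols, so that reads fall at the 3′ end and counts do not scale with gene length. The submitters' processing notes name STAR, Partek, DESeq2 and the mm10 genome without versions. How reads were counted, and with which strand setting, is not given in the sources used here. Raw gene counts deposited by the authors were used, and their normalized table was not. Of 16934 genes, 13139 passed edgeR's filter on low counts (minimum 10 per library, 15 in total).

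Scaling was TMM. One mean per group was fitted over all 16 libraries in 4 groups with edgeR 4.0.16 (R 4.3.3), and its robust quasi-likelihood F test was adjusted over all genes by the Benjamini-Hochberg method, with calls at an adjusted p under 0.05. Fold changes are the group with microglia over neurons alone, and SE is the log2 change divided by the root of F. CPM values are scaled by TMM library sizes, and log2 CPM uses a prior count of 2. The test was run first on simulated data. Alternatives were DESeq2 size factors or library totals as scaling, Rn45s left out, no filter, DESeq2 1.42.0, limma-voom 3.58.1, the 2 groups alone, the replicate number as a block and each library left out. Dropping both microglia-rich libraries (replicate 1 of each co-culture group) was added after seeing the data. Figures were drawn with matplotlib 3.10.9 under Python 3.11.15.

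Members and gene lists were chosen with earlier results of these data known. Lists are given by counts and medians with no test. Genes named are all called genes, the 10 abundant uncalled genes (mean log2 CPM above 5, no overlap) with the smallest p in each direction, called and 3 most abundant members of lists described gene by gene, and the 5 smallest interaction p. Lists given by counts and a median alone name no member, and other members named were chosen after their values were seen. A few genes that the rule names are not reported here. Positions are from GENCODE vM21 (GRCm38), matched by symbol for 96.2% of symbols. Total counts were 6740089 to 13986374 per library of the 2 groups.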

Additional observations from a re-analysis of the deposited data

Results flagged for a closer look

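In 50 sets of 4 libraries (called genes and summed cell type markers), 8 held a library whose gap to the nearest other exceeded Dixon's 95% limit, as a share of the set's range. That limit flags about 1 in 20 sets of independent, normally distributed values. Here CPM were not logged, and some called genes are also part of the summed markers. The rate expected for these 50 sets is therefore not known. Among called genes, co-culture replicate 1 stood high for Sox8 (281 CPM) and Lhfpl3 (532 CPM). Replicate 1 of the neurons alone stood high for Olig1 (802 CPM), and replicate 4 of the neurons alone stood high for Actr3b (235 CPM). Among summed markers, co-culture replicate 1 stood high for microglial genes (1140 CPM), and co-culture replicate 4 for astrocyte genes (9570 CPM). Replicate 1 of the neurons alone stood high for astrocyte genes (10600 CPM) and for oligodendrocyte precursor genes (4330 CPM).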

How the results depend on the processing

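Against 16 genes called, 16 were called with DESeq2 size factors in edgeR and with Rn45s left out, 26 without the filter, 35 with library totals (14 of the 16 among them), 295 with DESeq2 (all 16), 76 with limma-voom (11 of the 16), 1 with the 2 groups alone and 0 without both microglia-rich libraries (1005 at an unadjusted p under 0.05). Leaving out 1 library gave 0 to 39. The cause of these differences was not tested. The interaction had 0 calls under every alternative except DESeq2 (187). With the replicate number as a block 38 genes were called, including all 16. Serial numbers in the library titles run in sets, each with a same-numbered library of every group. What a set stands for is not stated. Deviations of same-numbered libraries correlated at 0.0106 to 0.0954. The main fit did not take the numbers as pairs, and these weak correlations do not exclude a pairing. Co-culture libraries 1, 2 and 3 correlated best with their own number, and 4 did not.

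With library totals, list medians came to −0.26 for axonal transport, −0.17 for Arp2/3, 0.26 for nanotubes, 0.0204 for autophagy, 0.00143 for mitochondrial carriers and 0.73 for splicing. Inhibitory neurons came to 0.95 with the block, and microglial identity to 0.30 with the 2 groups alone. Without both microglia-rich libraries microglial identity was 0.63 and mitochondrial carriers −0.65. Leaving out 1 library gave 0.0248 to 7.67 for microglial identity, −0.70 to −0.17 for mitochondrial carriers, −0.99 to −0.45 for growth factors, −0.60 to 0.51 for progenitors, 0.88 to 3.41 for interferon response and −1.43 to −0.67 for GABA genes.

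None of the 16 called genes changed sign, which their lack of overlap made nearly certain when a library was left out. Of the other named genes, sign changed with library totals for Map2 (0.0535), Tuba1a (0.0272), Cfl1 (0.0789), Slc25a5 (0.10), Slc25a3 (0.17) and Cdc42 (0.0582), with limma-voom for Jun (0.16), with the 2 groups alone for Slc25a3 (0.0155), and without both microglia-rich libraries for Slc25a5 (0.11), Slc25a3 (0.18) and Rpl41 (−0.000421). Leaving out 1 library gave −1.64 to 0.33 for Vim, −0.59 to 0.26 for Jun, −0.29 to 0.11 for Cfl1, −0.78 to 0.00654 for Dstn, −0.34 to 0.13 for Slc25a5, −0.30 to 0.21 for Slc25a3, −0.0125 to 0.21 for Rpl41, −0.0149 to 0.32 for Rplp1, −0.21 to 0.46 for Snrnp70 and −0.49 to 0.0831 for Rhoa. Correlations between libraries were 0.564 to 0.756, and low genes had the fewest groups apart.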
